A study of Mus musculus with 6 samples.

Results

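The genes described here are 10 enzymes of arginine, proline and polyamine metabolism: ODC1, AMD1, SRM, SMS, SAT1, ARG2, ASS1, PYCR1, ALDH18A1 and OAT. They were listed by symbol, with earlier results of these data known, and all 10 were found among the 14915 gene symbols of the table. The libraries were made from B16F10, a mouse melanoma cell line. The wild-type (WT) group was compared with a group labelled ZBTB5-S127A, in which the transcription factor ZBTB5 carries an alanine at a serine that can be phosphorylated. TNFα, an inflammatory cytokine, was given to both groups while amino acids were limited. Each group had 3 libraries and no untreated library was analysed here, so every difference is one between WT and S127A cells under the same treatment. On whether the S127A cells were a single clone or a pool, and on whether replicates were separate cultures, the labels say nothing. The p-values thus measure only how far these libraries spread, which could be technical.

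These enzymes share the metabolites arginine, ornithine, glutamate and proline. Arginase (ARG2 in mitochondria) splits arginine into urea and ornithine, and ASS1 with ASL rebuilds arginine from citrulline and aspartate. ODC1 decarboxylates ornithine to putrescine, and SRM and SMS add aminopropyl groups, supplied by AMD1, to give spermidine and spermine. SAT1 acetylates both for export or breakdown. OAT converts ornithine to the aldehyde that stands between glutamate and proline, ALDH18A1 makes that aldehyde from glutamate, and PYCR1 reduces it to proline. ODC1 is a classical growth-associated gene and a known MYC target, and the loss of ASS1 makes many melanomas depend on arginine from outside.

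Polyamine synthesis genes were higher in S127A, while ASS1 and OAT were lower. Expression was measured as TPM, a transcript abundance normalised for gene length and library total. The filter for testing, a mean of 1 TPM over all libraries, was passed by 9 of the 10 enzymes. Among these, 8 changed by limma at a Benjamini-Hochberg adjusted p of 0.05, against 90.0% of the 10348 genes tested. ODC1, AMD1, SRM, SMS, PYCR1 and ALDH18A1 rose, 6 of 9 against a background of 40.2% higher. ASS1 and OAT fell, 2 of 9 against a background of 49.8% lower. SAT1 did not pass, and ARG2 was too low to be tested. With 90.0% of all genes called, a call alone does not set these enzymes apart, and their sizes are given one by one. The median log2 difference of the 9 tested enzymes was 1.25, beside −0.12 for all tested genes. Log2 differences are of TPM + 1, S127A minus WT, with their standard error (SE), and understate the change of low genes.

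**Figure D1:**
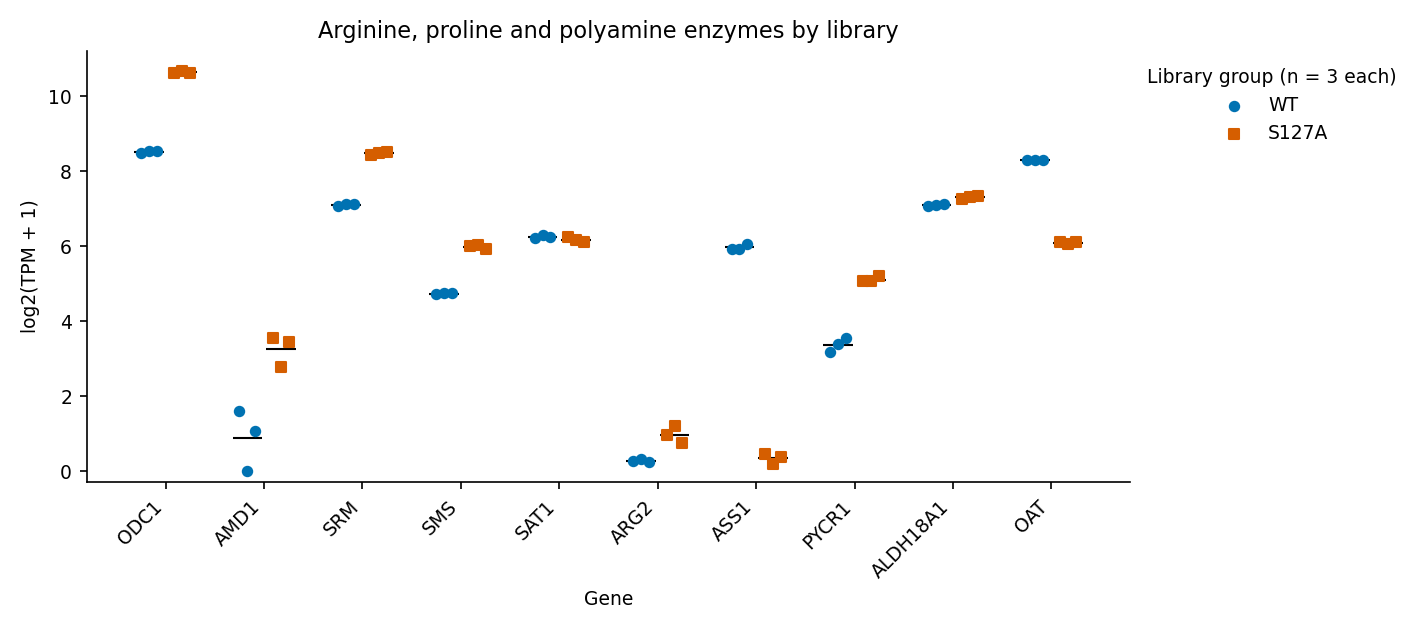
Level of each of the 10 enzymes in each library, as log2(TPM + 1), with circles for WT, squares for S127A and a line at the mean of each group (n = 3). ODC1, AMD1, SRM, SMS, ARG2 and PYCR1 lie higher in all 3 S127A libraries, ALDH18A1 slightly higher, ASS1 and OAT lower, and the SAT1 values overlap.

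The libraries of the groups differed widely beyond these genes. The 7 melanocyte markers summed to between 14911 and 15194 TPM in WT and to between 26.8 and 32.4 TPM in S127A, so the defining markers of the labelled melanoma line were near 0 in the S127A libraries. The 10 fibroblast markers summed to between 16.2 and 17.2 TPM in WT and 301 and 313 TPM in S127A, mostly COL1A2 in S127A (275 ± 6.56 TPM, against 1.41 ± 0.164 in WT), with LUM and THY1 at 0 in every S127A library and DCN at 0 in every WT library. POSTN, of the same list, went the other way, from 7.79 ± 0.912 to 0.0667 ± 0.0231 TPM. The 5 listed immune markers summed to between 7.20 and 8.28 TPM in WT and 48.6 and 51.2 TPM in S127A. The sum was mostly CD14 in S127A, with CD14 at 0 in WT. CD68, most of the WT sum, went the other way, from 7.64 ± 0.601 to 4.69 ± 0.409 TPM. The other 3 immune markers were below 1 TPM in every library. The 8 listed endothelial or epithelial markers summed to between 0.23 and 0.47 TPM in WT and 63.2 and 64.2 TPM in S127A. The sum was mostly KRT18 in S127A, with CDH5, KDR, TEK and KRT8 at 0 in WT. The 7 other than KRT18 were below 1 TPM in every library of both groups. Markers of hepatocytes, where the urea cycle runs, summed to at most 0.2 TPM in WT and 1.47 TPM in S127A, with TTR at 0 in all libraries and ALB and CPS1 at 0 in WT. The part of these marker differences in the results on the enzymes was not tested. In bulk RNA, fewer cells of a type and less RNA per cell cannot be told apart. ZBTB5 itself averaged 15.5 ± 0.54 TPM in WT against 8.90 ± 0.569 in S127A (mean ± SD, n = 3 per group, as for all values that follow). TPM does not show the substitution. With TMM factors the median log2 difference of all tested genes moved from −0.12 to 0.00, a shift of 0.12, and the differences of the 9 tested enzymes moved up by 0.07 to 0.12. Relative to that median, the directions of the 8 called enzymes were the same under each rescaling.

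ODC1, ornithine decarboxylase, is the rate-limiting entry into polyamine synthesis. Its gene (ENSMUSG00000011179.8) lies on chromosome 12, 17544794 to 17551505, plus strand, mm10. ODC1 stood at 357, 370 and 373 TPM in the 3 WT libraries and at 1558, 1637 and 1570 TPM in the 3 S127A libraries. Every S127A library was above every WT library by a wide margin. The mean rose 4.33-fold, from 367 ± 8.33 to 1588 ± 42.3 TPM (log2 difference 2.11, SE 0.0303, adjusted p = 2.25e-13). ODC1 was the most abundant of the 10 enzymes in both groups, and its place among all tested genes moved from 340 to 69 by mean TPM. A snoRNA gene lies within Odc1, and the sources used here do not say how its reads were counted.

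SRM, spermidine synthase, and SMS, spermine synthase, carry out the steps that follow. SRM (ENSMUSG00000006442.10, chromosome 4, 148591503 to 148594993, plus strand) held 133, 139 and 138 TPM in WT and 347, 360 and 365 TPM in S127A. It rose 2.61-fold, from 137 ± 3.56 to 357 ± 9.40 TPM (log2 difference 1.38, SE 0.0324, adjusted p = 9.79e-12). SMS (ENSMUSG00000071708.11, chromosome X, 157443855 to 157492287, minus strand) held 25.2, 25.9 and 26.0 TPM in WT and 63.4, 64.6 and 59.6 TPM in S127A. The groups did not overlap for either synthase. SMS rose 2.43-fold, from 25.7 ± 0.39 to 62.5 ± 2.60 TPM (log2 difference 1.25, SE 0.0426, adjusted p = 2.21e-10). A processed pseudogene of Sms is annotated, so reads shared with it leave some uncertainty.

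AMD1, S-adenosylmethionine decarboxylase, makes the aminopropyl donor that both synthases use. Its gene (ENSMUSG00000075232.5) lies on chromosome 10, 40287458 to 40302186, minus strand. AMD1 was listed at 2.03, 0 and 1.1 TPM in WT and at 10.7, 5.85 and 9.87 TPM in S127A. The lowest S127A library was above the highest WT library, but the libraries of each group were far more scattered than for the other synthesis genes. AMD1 rose (log2 difference 2.36, SE 0.339, adjusted p = 5.26e-05), by 1.19 with a pseudocount of 5 and by 3.76 with a pseudocount of 0.1. Amd2 and 5 processed pseudogenes carry copies of this gene in the annotation, so reads may be split among them and the low AMD1 level is uncertain. The sum of ODC1, AMD1, SRM and SMS was 530 ± 11.3 TPM in WT and 2017 ± 45.5 TPM in S127A. ODC1 made up 69.2% ± 0.129 of that sum in WT and 78.8% ± 0.418 in S127A.

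SAT1, the acetyltransferase that begins polyamine breakdown, did not pass the test. Its gene (ENSMUSG00000025283.15) lies on chromosome X, 155213132 to 155216449, minus strand. SAT1 held 73.5, 78.5 and 74.3 TPM in WT and 74.3, 70.4 and 67.9 TPM in S127A. The groups overlapped, with means of 75.4 ± 2.64 and 70.9 ± 3.24 TPM (log2 difference −0.09, SE 0.0428, adjusted p = 0.0692). The sign turned with TMM factors (0.03), and SAT1 passed with sample weights (−0.11, adjusted p = 0.0236) and without S127A replicate 1 (−0.12, adjusted p = 0.0188). Its adjusted p ran from 0.0188 to 0.731 over 17 alternatives.

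**Figure D2:**
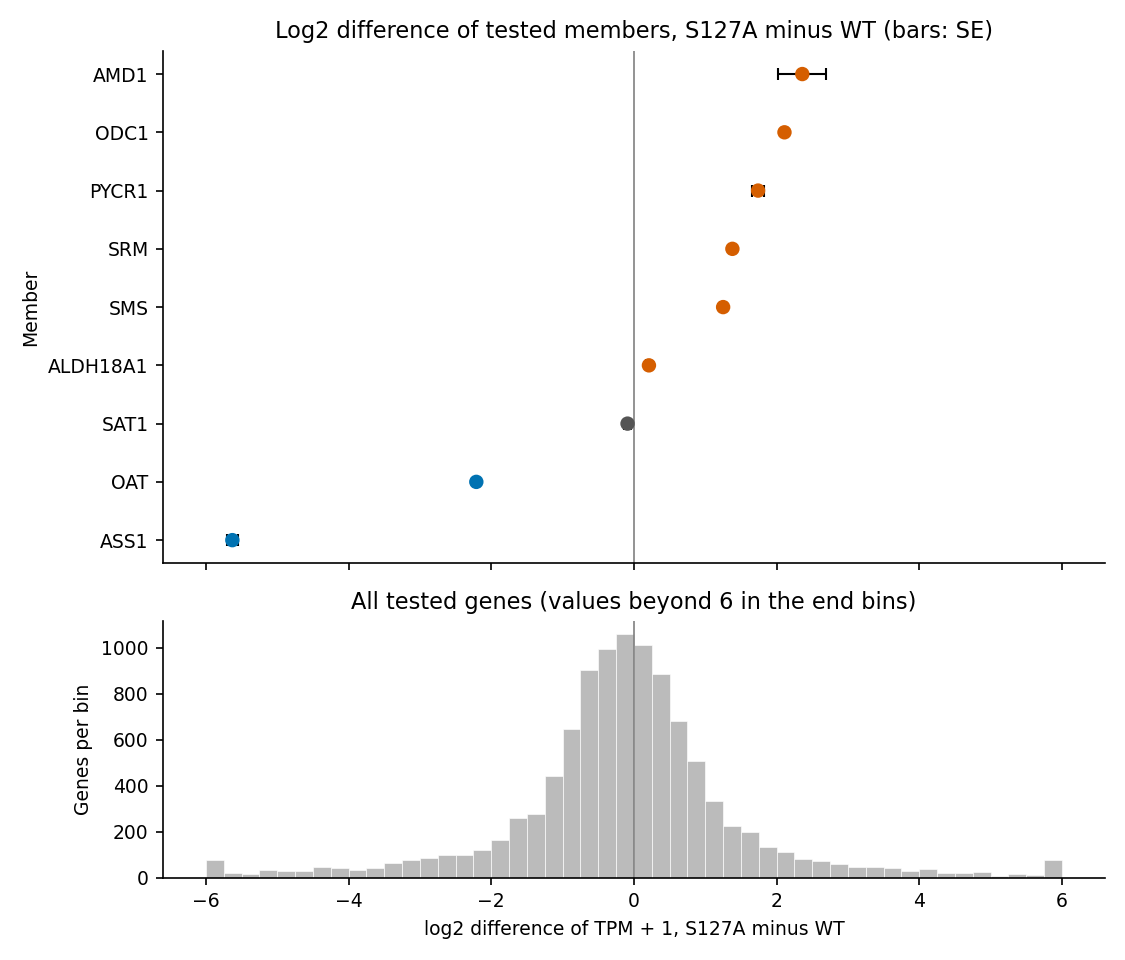
Upper panel: log2 difference of each of the 9 tested enzymes, S127A minus WT, with bars for the SE, in orange where higher, blue where lower and grey where not passed. Lower panel: number of genes per bin of the same difference for all 10348 tested genes. AMD1, ODC1 and PYCR1 lie to the right of most genes and ASS1 at −5.63 lies near the left edge, while SAT1 and ALDH18A1 lie in the central mass.

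ASS1, argininosuccinate synthase, the enzyme that begins arginine synthesis from citrulline, had the largest difference of the 9 tested enzymes. Its gene (ENSMUSG00000076441.9) lies on chromosome 2, 31470207 to 31520672, plus strand. ASS1 held 59.8, 60.2 and 65.8 TPM in WT and 0.38, 0.15 and 0.30 TPM in S127A. All 3 S127A libraries were close to 0 and far below every WT library. The mean fell from 61.9 ± 3.38 to 0.277 ± 0.117 TPM (log2 difference −5.63, SE 0.0788, adjusted p = 1.95e-13), and the difference was −3.66 with a pseudocount of 5. By absolute log2 difference it ranked 178 among all tested genes. ASL, argininosuccinate lyase, which completes the synthesis, fell from 113 ± 4.22 to 31.6 ± 0.864 TPM (log2 difference −1.80, SE 0.0403, adjusted p = 6.64e-12).

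ARG2, mitochondrial arginase, was close to the floor of the table. Its gene (ENSMUSG00000021125.6) lies on chromosome 12, 79130777 to 79156301, plus strand. ARG2 held 0.20, 0.25 and 0.18 TPM in WT and 0.96, 1.29 and 0.69 TPM in S127A. The groups did not overlap, yet its mean over the 6 libraries was below 1 TPM and no test was made. With no filter on low values its log2 difference was 0.70 (SE 0.103, adjusted p = 4.05e-04 by limma). Vti1b lies over part of Arg2 on the opposite strand, and no source used here gives the strand setting of the counting, so reads from the pair cannot be told apart. ARG1, the cytosolic arginase of liver, was at or below 0.08 TPM in every library.

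OAT, ornithine aminotransferase, links ornithine to the proline and glutamate branch in mitochondria. Its gene (ENSMUSG00000030934.9) lies on chromosome 7, 132557478 to 132576398, minus strand. OAT held 313, 316 and 316 TPM in WT and 68.3, 65.1 and 68.7 TPM in S127A. The libraries of each group lay close together, and all 3 WT libraries were far above the S127A libraries. The mean fell from 315 ± 1.79 to 67.4 ± 1.97 TPM, 4.67-fold lower (log2 difference −2.21, SE 0.0314, adjusted p = 2.16e-13). Beside ODC1, the other enzyme here that uses ornithine, OAT stood at 315 against 367 TPM in WT and at 67.4 against 1588 TPM in S127A. An overlap with the annotated Fgfr2 locus leaves some reads uncertain.

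PYCR1, the mitochondrial reductase that makes proline, rose, and ALDH18A1, the synthase that feeds it from glutamate, rose by much less. PYCR1 (ENSMUSG00000025140.15, chromosome 11, 120635712 to 120643769, minus strand) held 8.03, 9.43 and 10.7 TPM in WT and 32.4, 32.5 and 35.7 TPM in S127A. The lowest S127A library stood well above the highest WT library. The mean rose 3.58-fold, from 9.37 ± 1.32 to 33.6 ± 1.88 TPM (log2 difference 1.74, SE 0.0859, adjusted p = 5.21e-09). ALDH18A1 (ENSMUSG00000025007.13, chromosome 19, 40550257 to 40588463, minus strand) held 132, 136 and 138 TPM in WT and 151, 159 and 162 TPM in S127A. The groups did not overlap but lay close together. The mean rose 1.16-fold, from 135 ± 2.73 to 157 ± 5.41 TPM (log2 difference 0.21, SE 0.0344, adjusted p = 1.36e-04). The difference was 0.33 with TMM factors and 0.36 with quantile normalization. A processed pseudogene lies within the Aldh18a1 locus.

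Promoter sequence was read for 8 of the 10 genes from RefSeq (GRCm38.p6, the build also called mm10), in 9 windows of 250 bases before and 50 after an annotated start. SRM and ARG2 had no entry. Both strands were searched for the E-box CACGTG, which MYC and MITF family factors can bind, for the ATF4 type element TGATGNAA and for an NF-kB type element. The E-box was found in windows of 3 genes, SMS and ALDH18A1, which rose, and ASS1, which fell. It occurs in 7.15% of the 32851 promoter windows of the table. The ATF4 type element was found only in the PYCR1 window among the 9, beside 3.97% of all windows, and the NF-kB type element in none of the 9, beside 0.411% of all windows. The stretches around each match are shown because they set genes that moved in opposite directions beside each other; they read 5′ to 3′ on the gene's strand, with the match in capitals.
SMS, chrX:157492448-157492513, minus strand, match 196 bases before the start: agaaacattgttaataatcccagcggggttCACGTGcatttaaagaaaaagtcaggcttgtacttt
ALDH18A1, chr19:40588487-40588552, minus strand, match 59 bases before the start: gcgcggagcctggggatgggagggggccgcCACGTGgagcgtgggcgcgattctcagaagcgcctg
ASS1, chr2:31470222-31470251, plus strand, match 36 bases before the RefSeq start: cgcgcccgtcccCACGTGtcccaggttcct
PYCR1, chr11:120643814-120643881, minus strand, match 103 bases before the start: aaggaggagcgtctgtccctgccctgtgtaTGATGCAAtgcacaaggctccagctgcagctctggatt
Distances are counted from the RefSeq start, which for PYCR1 differs from the GENCODE gene start given above. The ASS1 match lies after the gene start of the GENCODE annotation, so fewer bases are shown. A match is a run of letters and not a measured binding site.

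Of the factors named beside the searched motifs, MYC and ATF4 were higher in S127A and MITF was lower. Levels of NF-kB factors and of other members of the MITF family are not given here. MYC held 32.5, 32.5 and 36.3 TPM in WT and 182, 195 and 183 TPM in S127A, a 5.53-fold rise (log2 difference 2.44, SE 0.0491, adjusted p = 2.87e-12). ATF4 rose 1.79-fold, from 554 ± 26.6 to 993 ± 29.0 TPM (log2 difference 0.84, SE 0.0383, adjusted p = 2.60e-09). MITF, a melanocyte factor in the marker list, fell from 143 ± 9.67 to 8.17 ± 0.487 TPM, 17.6-fold lower (log2 difference −3.98, SE 0.0581, adjusted p = 2.54e-13). MYCN was at or below 0.05 TPM in every library. The part of these factors in the levels of the enzymes was not tested.

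Ratios between genes within a library do not depend on the library total, so they set the enzymes of a route against each other without it. Of the 11 pairs reported, 10 could be computed, since AMD1 was listed at 0 in 1 library. Of these 10 ratios 9 gave p = 0.1 by an exact permutation test of the 6 library values, two-sided, the smallest that 3 against 3 allows (p = 0.111 adjusted by Benjamini-Hochberg over the 10), so none could pass 0.05. Ratios of other gene pairs were not computed, so this count of 9 does not set these pairs apart. ODC1 stood at 0.525 ± 0.0168 times OAZ1 in WT and 4.68 ± 0.129 times in S127A. OAZ1 is the antizyme that targets the ODC1 protein for destruction, and its transcript was the more abundant of the pair in WT and the less abundant in S127A. SAT1 stood at 0.206 ± 0.00641 times ODC1 in WT and 0.0446 ± 0.00263 times in S127A. SRM was at 0.372 ± 0.00363 times ODC1 in WT and 0.225 ± 0.00651 times in S127A, lower in each of the S127A libraries than in any WT library. SMS against SRM had the smallest difference between groups of the pairs without ARG2, 0.188 ± 0.00239 in WT and 0.175 ± 0.0103 in S127A.

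The ratios of the arginine and proline routes follow. ASS1 was at 0.550 ± 0.0155 times ASL in WT and 0.00870 ± 0.00348 times in S127A, with 0.00487 to 0.0117 in the single S127A libraries. ALDH18A1 was at 0.430 ± 0.00657 times OAT in WT and 2.33 ± 0.114 times in S127A. Of these enzymes, which both supply the precursor of proline, OAT had the higher transcript level in every WT library and ALDH18A1 in every S127A library. PYCR1 was at 0.0692 ± 0.00836 times ALDH18A1 in WT and 0.214 ± 0.00816 times in S127A. ODC1 against ARG2 gave p = 0.8 by the same exact permutation test, with a log2 difference of −0.08 between the groups, at ARG2 levels too low for a firm ratio, and OAT against ARG2 fell from 1528 ± 247 to 73.7 ± 24.6.

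**Figure D3:**
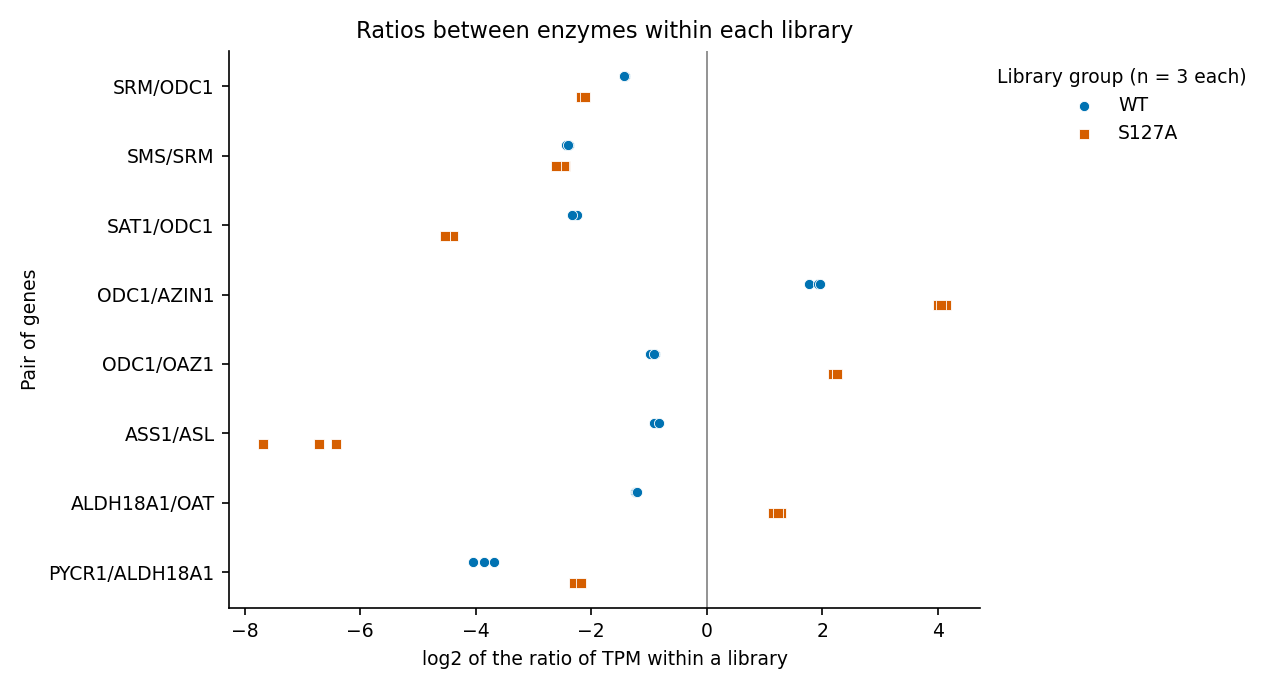
Log2 of the ratio of TPM between the named genes within each library, for 8 pairs without ARG2, with circles for WT and squares for S127A (n = 3 each). The groups do not overlap for any of the 8 pairs, with the widest gap for ASS1/ASL and the narrowest for SMS/SRM. Other gene pairs were not computed, so this separation does not set these pairs apart.

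Other genes of these pathways were taken from 9 fixed lists with 79 genes reported here, of which 72 were listed and 56 reached the mean for a test. Of the 56 tested, 19 rose, 31 fell and 6 did not pass, with a median log2 difference of −0.38 beside −0.12 for all tested genes. Of all tested genes 40.2% were higher and 49.8% lower, so these counts lie near the background. The counts of the single lists rest on 3 to 10 genes and are descriptions to be read against the same shares. The rule for named genes gives up to 4 members per list with the largest difference and all that did not pass.

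Of the regulators of the ODC1 protein, the main antizyme fell. Among 3 tested antizymes and antizyme inhibitors OAZ1 alone passed, falling from 700 ± 11.0 to 339 ± 7.32 TPM (log2 difference −1.04, SE 0.0282, adjusted p = 3.14e-11). A pseudogene of Oaz1 is annotated and may share reads. OAZ2, another antizyme, held 82.6 ± 0.369 TPM in WT and 85.2 ± 2.87 TPM in S127A (adjusted p = 0.243). It passed as higher under 3 rescalings, by TMM factors (0.16, adjusted p = 9.85e-04), by quantiles (0.13, adjusted p = 0.00487) and after rescaling to a common total (0.10, adjusted p = 0.0212). AZIN1, the inhibitor that frees ODC1 from antizyme, held 99.3 ± 5.0 and 94.6 ± 2.79 TPM (adjusted p = 0.141, and from 0.0756 to 0.744 over 17 alternatives).

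Of 7 tested genes of polyamine breakdown and transport 5 were lower and 2 higher, beside 49.8% and 40.2% of all tested genes, with a median log2 difference of −1.47. ATP13A2, the lysosomal polyamine exporter, fell from 155 ± 2.98 to 15.7 ± 1.04 TPM (log2 difference −3.22). PAOX, the peroxisomal oxidase of acetylated polyamines, fell from 13.5 ± 0.168 to 2.04 ± 0.264 TPM, and SLC18B1, a vesicular polyamine transporter, from 15.3 ± 1.24 to 2.67 ± 0.427 TPM. SMOX, the oxidase that returns spermine to spermidine, went the other way and rose from 23.7 ± 0.81 to 75.7 ± 1.45 TPM (log2 difference 1.64, SE 0.0405, adjusted p = 1.51e-11). SAT2, an acetyltransferase related to SAT1 and chosen after its values were seen, was lower, with a mean of 7.21 ± 1.60 in WT against 1.97 ± 0.651 TPM in S127A (adjusted p = 1.01e-05). Among these enzymes SMOX thus rose and PAOX and SAT2 fell, while SAT1 did not pass. In the hypusine pathway, which uses spermidine to modify the translation factor eIF5A, 2 of 4 genes fell, 1 rose and 1 did not pass. EIF5A, which has an annotated copy that may share reads, fell from 1684 ± 15.2 to 834 ± 12.3 TPM, and EIF5A2 from 8.71 ± 0.352 to 0.1 ± 0.0265 TPM. DHPS, the synthase of hypusine, rose from 39.3 ± 1.18 to 43.7 ± 1.90 TPM (adjusted p = 0.00972), and DOHH, the hydroxylase, held 60.7 ± 2.42 and 59.1 ± 3.66 TPM (adjusted p = 0.472).

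Methionine supply feeds AMD1, and salvage recovers the by-product of SRM and SMS. Of 10 tested genes of this list 6 were lower and 3 higher, beside 49.8% and 40.2% of all tested genes. Their median log2 difference was −0.43. AHCY, which hydrolyses S-adenosylhomocysteine, fell from 79.7 ± 2.68 to 3.12 ± 0.448 TPM (log2 difference −4.30, SE 0.0751, adjusted p = 9.44e-13). ADI1, of the salvage route, fell from 144 ± 4.52 to 15.6 ± 0.466 TPM. MTAP, which cleaves the methylthioadenosine that SRM and SMS release, fell from 268 ± 2.0 to 164 ± 4.37 TPM (log2 difference −0.70), while both synthases rose. MTRR rose from 16.8 ± 0.65 to 36.2 ± 1.29 TPM, and the methionine synthase MTR held 20.4 ± 1.68 and 19.2 ± 1.05 TPM (adjusted p = 0.263).

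**Figure D4:**
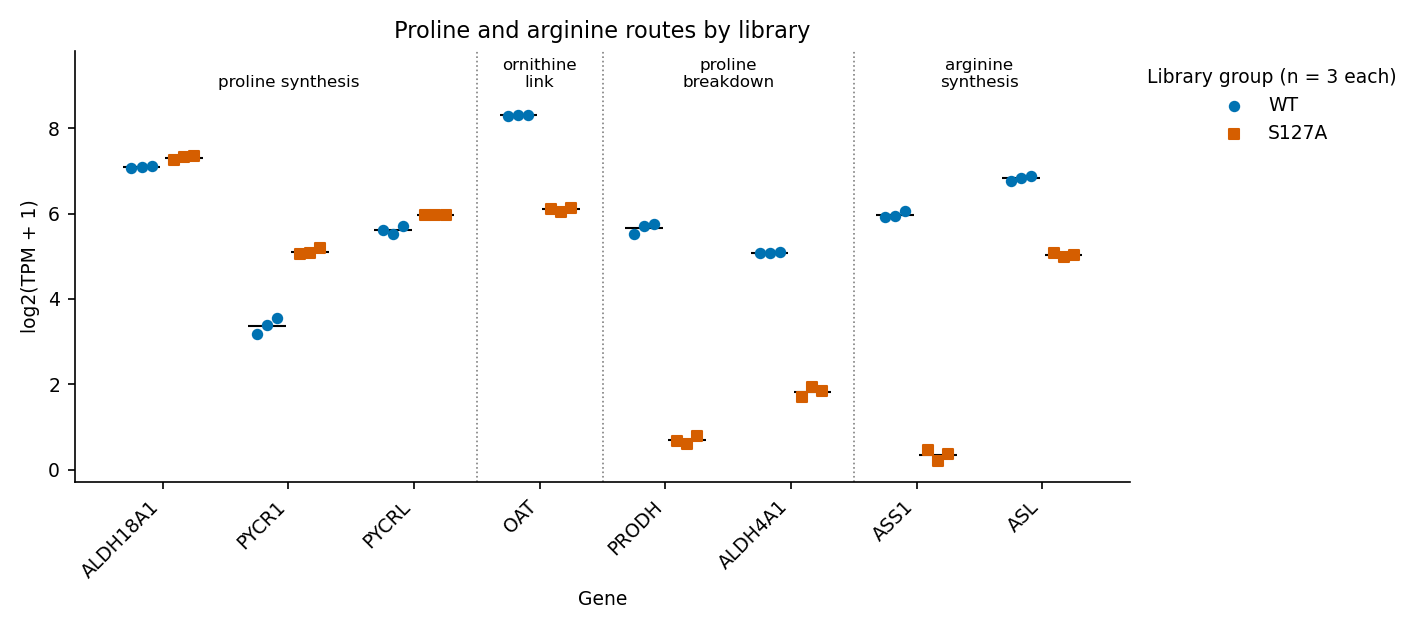
Level of proline synthesis, proline breakdown and arginine synthesis genes, and of OAT, in each library as log2(TPM + 1), with circles for WT, squares for S127A and a line at the mean of each group (n = 3). The 3 synthesis genes on the left lie higher in S127A, and OAT and the 4 breakdown and arginine synthesis genes on the right lie lower. ALDH18A1 and PYCRL rose only slightly (log2 differences 0.21 and 0.34), and PYCRL was chosen after its values were seen. Among all tested genes 40.2% were higher and 49.8% lower.

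Both enzymes of proline breakdown that were tested fell, beside 49.8% of all tested genes. Of 10 tested genes of proline and glutamate metabolism 5 rose and 5 fell, with a median log2 difference of −0.10. Among all tested genes 40.2% were higher. PRODH, proline dehydrogenase, which begins breakdown, held 44.8, 51.3 and 53.4 TPM in WT and 0.59, 0.52 and 0.74 TPM in S127A. PRODH was thus close to 0 in all 3 S127A libraries (log2 difference −4.97, SE 0.0812, adjusted p = 5.53e-13), with a difference of −3.28 at the smallest over 17 alternatives. ALDH4A1, which completes breakdown to glutamate, fell from 32.8 ± 0.305 to 2.54 ± 0.282 TPM (log2 difference −3.26, SE 0.0677, adjusted p = 3.70e-12). PYCRL, a cytosolic reductase of proline synthesis that was chosen after its values were seen, went from 48.4 ± 3.27 TPM up to 61.5 ± 0.301 TPM (adjusted p = 4.49e-05).

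On the glutamate side, SLC1A5, a glutamine transporter, rose from 117 ± 4.77 to 484 ± 4.14 TPM. GLS2, a glutaminase, rose from 1.07 ± 0.163 to 3.52 ± 0.162 TPM. GLUL, of the same list, went the other way, from 84.2 ± 1.81 to 51 ± 0.627 TPM. GLUD1 rose from 95.9 ± 2.21 to 209 ± 4.54 TPM. Both GLUL and GLUD1 were named after their values were seen. All 3 tested genes of proline hydroxylation, which acts on collagen, fell, beside 49.8% of all tested genes. P4HA3, of the same list, was too low to be tested. P4HA1 fell from 67.0 ± 5.18 to 31.1 ± 1.44 TPM, P4HA2 from 36.0 ± 1.22 to 22.8 ± 0.554 TPM and P4HB from 657 ± 9.40 to 394 ± 11.9 TPM.

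Around arginine, 6 of the 14 genes of the urea cycle, nitric oxide synthesis and arginine use were tested. Of these 4 fell and 2 rose, beside 49.8% lower and 40.2% higher among all tested genes. The other 8 were below a mean of 1 TPM, among them OTC, CPS1 and NAGS of the mitochondrial urea cycle, each under 0.1 TPM in every library. NOS2, the inducible nitric oxide synthase, was listed at 0 in all 3 WT libraries and at 4.86, 4.33 and 5.72 TPM in S127A (adjusted p = 3.73e-10). DDAH2, which degrades methylated arginine, fell from 38.1 ± 1.73 to 4.13 ± 0.446 TPM, and GAMT, of creatine synthesis, from 19.6 ± 1.57 to 5.90 ± 0.965 TPM. DDAH1, named after its values were seen, went the other way, from 3.97 ± 0.355 to 12.8 ± 0.701 TPM.

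Of 6 tested arginine transporters and sensors 3 rose, 1 fell and 2 did not pass, with a median log2 difference of 0.31. Among all tested genes 40.2% were higher and 49.8% lower. SLC7A1, the main cationic amino acid transporter of most cells, held 125, 133 and 130 TPM in WT against 190, 193 and 193 TPM in S127A. All 3 S127A libraries were higher, and SLC7A1 rose by a log2 difference of 0.57 (SE 0.0314, adjusted p = 1.42e-08). SLC3A2, the heavy chain shared by several exchangers, rose from 208 ± 9.54 to 344 ± 6.94 TPM, and SLC7A3 from 0.473 ± 0.276 to 3.42 ± 0.174 TPM. SLC7A7, an exporter of cationic amino acids, fell from 6.90 ± 1.04 to 1.24 ± 0.655 TPM. SLC7A6 held 37.4 ± 0.63 and 38.7 ± 1.87 TPM (adjusted p = 0.328) and passed as higher with TMM factors (0.17, adjusted p = 0.00474) and after quantile normalization (0.12, adjusted p = 0.0299). The lysosomal arginine sensor SLC38A9 held 5.39 ± 0.201 and 5.31 ± 0.193 TPM (adjusted p = 0.784) and passed as higher with quantile normalization (0.23, adjusted p = 0.00607).

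Among the 7 tested arginine methyltransferases, 4 fell and 3 rose, beside 49.8% and 40.2% of all tested genes, with a median log2 difference of −0.15. PRMT1, the main enzyme of asymmetric arginine methylation, fell from 421 ± 2.66 to 271 ± 13.7 TPM, and PRMT5, of symmetric methylation, from 82.5 ± 1.99 to 55.2 ± 1.55 TPM. PRMT7 rose from 41.2 ± 2.0 to 53.4 ± 1.18 TPM and PRMT6 from 23.1 ± 0.825 to 28.1 ± 0.888 TPM. PRMT2, chosen after its values were seen, had overlapping groups, with 45.8 ± 3.0 and 41.0 ± 2.28 TPM (log2 difference −0.15, adjusted p = 0.0241). It did not pass under any of the 3 rescalings (adjusted p = 0.112 to 0.556) or without WT 2, WT 3, S127A 1 or S127A 3 (adjusted p = 0.0509 to 0.0952), which leaves 3 lower genes in the list. The largest difference of the list, that of PRMT1, was −0.63 on the log2 scale.

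**Figure D5:**
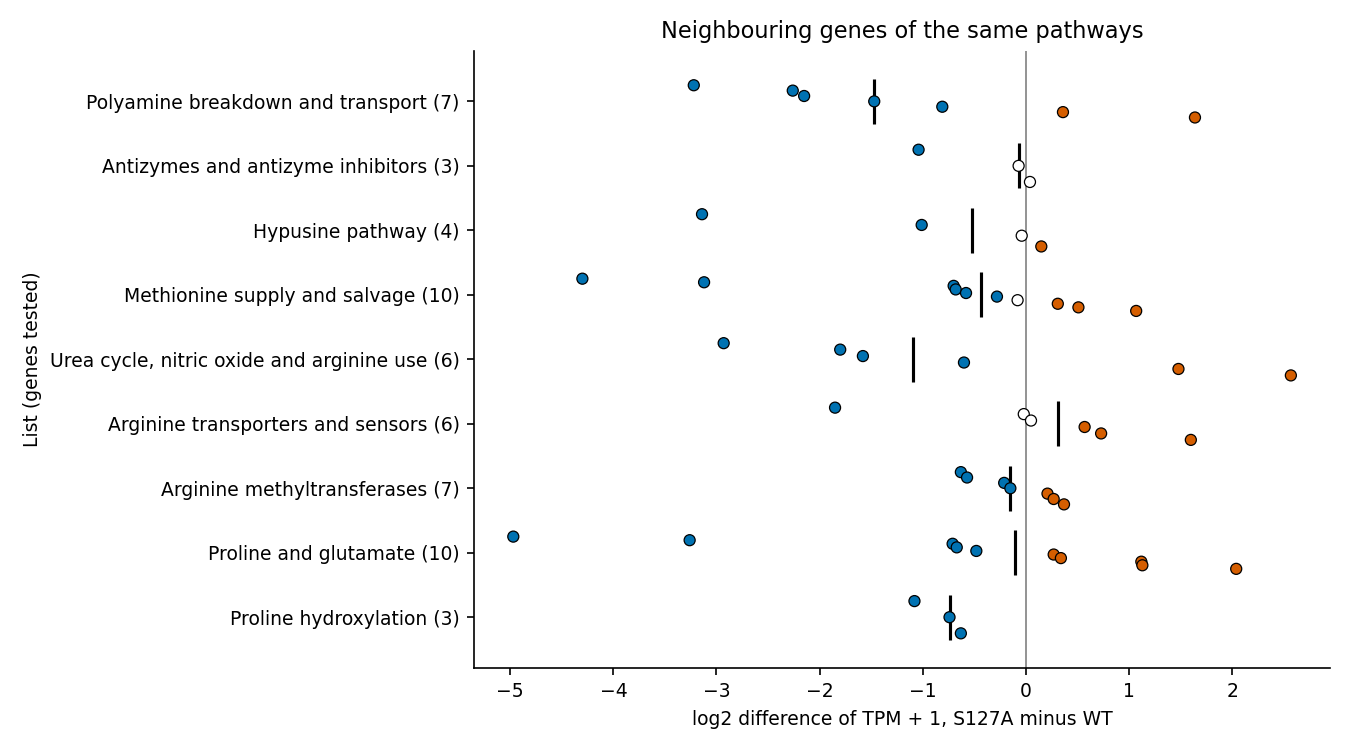
Log2 difference of each tested gene of the 9 lists, S127A minus WT, with 1 point per gene, orange where higher, blue where lower and white where not passed, and a bar at the list's median. PRODH at −4.97 and AHCY at −4.30 lie farthest to the left, and the point farthest to the right is the fitted value of NOS2, which was listed at 0 in WT.

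For the 2 tested enzymes with the largest absolute differences, the genes with the most similar pattern were found by Euclidean distance of centred log2(TPM + 1) over the 6 libraries. For ASS1 they were UNC5C (distance 0.188), ENHO (0.194) and SOX6 (0.200). SOX6 held 60.4 ± 0.922 TPM in WT and 0.223 ± 0.00577 TPM in S127A. For AMD1 they were INSL3 (0.868), RTP4 (0.978) and DHRS3 (1.01), all farther away than those of ASS1. The 6 libraries form only 2 groups, so genes with a similar difference between the groups lie near each other by this measure.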

How the data were processed

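RNA-seq was available for 6 libraries, 3 WT and 3 S127A, grouped by the sample titles. Per the file headers, the values the authors deposited are TPM for each gene symbol and library. Per the submitters' processing notes, the genome build was mm10. No source used here names the aligner, quantifier, annotation or strand setting. The columns of the table summed to between 862949 and 864529 TPM in WT and between 830745 and 833332 TPM in S127A. TPM keeps no depth, so the depth is unknown, no counting interval is printed, and errors are standard deviations over replicates.

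The log2(TPM + 1) values (pseudocount 1) of genes averaging at least 1 TPM were fitted by limma 3.58.1 under R 4.3.3 (mean-variance trend, two-sided, genotype as the only term). Adjustment was by Benjamini-Hochberg over 10348 genes at 0.05, and adjusted p-values are from limma unless stated. The fit was also run on simulated data in which far fewer genes changed than here, so that run does not test it at this extent of change. TMM factors, trimmed means of the log ratios between libraries, were computed on the TPM values. Ratios, exact permutation tests and figures used Python 3.11.15 with numpy 2.4.6 and pandas 2.3.3. Gene positions are from GENCODE M21. The alternatives were pseudocounts of 0.1 and 5, no filter or a mean of at least 5 TPM, 3 rescalings, 3 variance models, each library left out in turn and a replicate block.

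The enzymes, lists and rules were chosen with earlier results of these data known. The named genes were the 10 enzymes, the genes of the 11 ratios, MYC, MYCN, ATF4 and ZBTB5, up to 4 called genes per list by size, those not passed, and the nearest patterns. A few genes of the lists, and 1 ratio, are not reported here and were left out of the list counts without regard to their values.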

Additional observations from a re-analysis of the deposited data

How the results depend on the processing

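The 6 rises and 2 falls among the tested enzymes kept direction and call under each of the alternatives that gave a value. With a mean of at least 5 TPM, AMD1 was not tested. SAT1 passed with sample weights (−0.11) and ran from −0.12 to −0.06 with 1 library left out. List counts are small and moved with the filter: with a mean of at least 5 TPM, 1 polyamine breakdown gene was higher, 1 hypusine gene lower, 1 urea cycle gene higher and 0 arginine transporters lower. With no filter, 4 urea cycle genes and 1 proline hydroxylation gene were higher. Under each of the 3 rescalings 1 antizyme gene was higher, and quantile normalization gave 5 higher arginine transporters and sensors. SLC38A9 turned to 0.23 after quantile normalization. With ratios of TPM + 1, the log2 difference was −3.83 for ASS1/ASL, −2.91 for OAT/ARG2 and 1.41 for ODC1/ARG2, which ran from −0.30 to 0.12 with 1 library left out. By construction, a larger pseudocount shrinks genes near 0: EIF5A2 ran from −5.47 to −1.43, PRODH from −6.13 to −3.28 and PAOX from −2.68 to −1.39.

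Same-numbered libraries of the 2 groups did not deviate together in every pair (r = 0.117, 0.017 and 0.028 over genes). WT replicate 1 correlated best with S127A replicate 1. WT replicate 2 did so with S127A replicate 3 (r = 0.034) and WT replicate 3 with S127A replicate 2 (r = 0.054). With a replicate block 4178 genes were higher and 5161 lower, beside 4161 and 5154, and no call among the enzymes changed. The depth of the libraries is unknown, so the precision of values near 0 cannot be given, among them those of ARG2 and of ASS1 in S127A.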
